A study of Mus musculus with 40 samples.

Results

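The genes described here are 10 transcripts of hepatic stellate cells and their collagen matrix, chosen by symbol from the 32544 gene rows of a liver count table: Col1a1, Col1a2, Col3a1, Col4a1, Acta2, Timp1, Lrat, Reln, Dcn and Des. RNA came from whole livers of germ-free male C57BL/6 mice, which are raised without any microbes, at postnatal day 64. The mice received delta-valerobetaine (VB), a metabolite that gut bacteria can make, or vehicle for 6 weeks, and were fed either a control or a Western diet. This gave 4 groups of 5 mice: control diet with vehicle, control diet with VB, Western diet with vehicle, and Western diet with VB. All 4 groups were germ-free, so no group shows these genes in a colonised liver. The labels give no histology and no time of day at collection. The design asks whether VB alters liver transcripts, and whether the diet changes that response.

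Hepatic stellate cells lie between the hepatocytes and the sinusoidal endothelium, where in healthy liver they store vitamin A as retinyl esters. After injury they can turn into contractile myofibroblasts that express alpha smooth muscle actin and secrete fibrillar collagens, the main source of scar matrix in fibrosis. Quiescent stellate cells are recognised by lecithin retinol acyltransferase (Lrat), which makes the retinyl esters, and by reelin (Reln), a large secreted glycoprotein. In rodents stellate cells also hold the intermediate filament desmin (Des). Decorin (Dcn) is a small proteoglycan that binds collagen fibrils and TGF-beta. Col1a1 and Col1a2 encode the chains of collagen I, Col3a1 that of collagen III, and Col4a1 a chain of the basement membrane collagen IV, which endothelial cells make as well. Acta2, the smooth muscle actin, is also abundant in the muscle of vessel walls. Timp1 encodes a secreted inhibitor of matrix metalloproteinases that is produced during matrix remodelling.

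Of the 10 genes, 9 passed the filter on low counts, and Timp1 did not. Levels per kilobase of exon, as counts-per-million (CPM) divided by exon length and averaged over the 20 mice, placed Dcn first at 21.4. Col4a1 followed at 3.08, Lrat at 2.04, Col3a1 at 2.03 and Acta2 at 1.48. Des stood at 0.804, Reln at 0.685, Col1a2 at 0.591, Col1a1 at 0.559 and Timp1 at 0.234. Dcn was above Col4a1 in 20 of 20 mice, and Col4a1 above Lrat in 17, whereas Lrat exceeded Col3a1 in 10 of 20, so that neighbouring pair was not ordered. The later neighbours kept their order in 13 to 16 of the 20 mice. In bulk tissue, fewer cells of a type and less RNA per cell cannot be told apart, and this applies to every value below.

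The start sites of Reln, Lrat and Col3a1 are shown as examples of the genes' roles: the member called in both diet comparisons, the enzyme that defines the quiescent cell, and a fibrillar collagen. RefSeq promoter windows of GRCm38.p6 were matched by symbol for 8 of the 10 genes. Each line gives the 250 bases before the start, 5′ to 3′ on the gene's strand, with capitals marking matches on either strand to CCAAT (the element of NF-Y), to TATAAA (the TATA box), to GGGCGG (the GC box) or to CAGAC (a core that SMAD proteins bind). The windows are chr5:22344706-22344955 on the minus strand for Reln, chr3:82903975-82904224 on the minus strand for Lrat, and chr1:45311288-45311537 on the plus strand for Col3a1.
Reln: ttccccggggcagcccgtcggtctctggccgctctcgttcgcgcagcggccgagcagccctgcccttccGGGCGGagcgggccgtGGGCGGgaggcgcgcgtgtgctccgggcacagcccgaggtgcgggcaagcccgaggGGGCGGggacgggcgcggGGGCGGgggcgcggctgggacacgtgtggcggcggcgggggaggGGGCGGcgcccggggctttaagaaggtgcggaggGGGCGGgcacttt
Lrat: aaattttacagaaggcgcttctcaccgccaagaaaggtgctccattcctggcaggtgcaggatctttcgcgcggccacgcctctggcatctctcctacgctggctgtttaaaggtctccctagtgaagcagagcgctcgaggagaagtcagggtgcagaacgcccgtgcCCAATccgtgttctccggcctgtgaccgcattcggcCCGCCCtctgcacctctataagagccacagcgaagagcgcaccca
Col3a1: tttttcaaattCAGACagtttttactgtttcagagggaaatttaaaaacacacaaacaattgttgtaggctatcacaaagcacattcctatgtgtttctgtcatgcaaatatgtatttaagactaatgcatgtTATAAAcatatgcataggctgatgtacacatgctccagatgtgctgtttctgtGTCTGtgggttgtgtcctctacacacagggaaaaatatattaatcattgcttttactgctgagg

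The 3 windows differ in composition, with 80.0% G and C for Reln, 59.2% for Lrat and 35.2% for Col3a1. Reln holds 6 copies of GGGCGG, Lrat holds CCAAT and a single GC box on the other strand, and Col3a1 holds TATAAA and CAGAC on each strand. The TATAAA match of Col3a1 lies at bases -117 to -112 from the start. Over the 8 windows, GGGCGG was present in 5, against 32.7% of 32851 windows of the same length in the RefSeq table. CCAAT was present in 4 of 8 (33.8% of all windows), CAGAC in 3 of 8 (42.2%) and TATAAA in 1 of 8 (12.4%). The strict CArG box pattern (CC, 6 bases of A or T, then GG), the element bound by serum response factor, matched in 0 of 8, against 1.47% of all windows. Only exact matches were counted. The Acta2 window holds ccctatatgg and ccttgtttgg, which each differ from the pattern by a single base, so the 0 does not mean that such elements are absent. Likewise, the Lrat window holds tataag near its end, a single base away from TATAAA. Whether this stretch or the Col3a1 match acts as a TATA box was not tested. These are matches of letters, and no binding was measured.

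Each mouse had 2 lane files of the same library, summed here, with 16315342 to 24566686 counts per mouse. Summed reads per mouse ran from 796 to 3800 for Dcn, from 129 to 566 for Reln and from 16 to 175 for Col1a1. Western diet vehicle mouse 4 stood apart in its mitochondrial share, 4.62% of counts, where the group medians lay between 2.37% and 2.61%. Western diet VB mouse 4 had the next highest share, 3.33%. The hepatocyte markers were far above the other lists, with Alb at 15600 to 22350 CPM in the group means, as liver tissue would hold. Of 21 stellate cell markers all were detected, the lowest being Gfap, at 0 in 6 mice. The libraries of the 2 diets are named in different ways, and a batch of handling, if the names mark one, cannot be told apart from diet. A score of 21 circadian clock genes also differed between groups, with means of -1.30 ± 0.39 (SD, n = 5) and -0.22 ± 0.26 in control diet vehicle and VB mice, and 1.30 ± 0.13 and 0.23 ± 0.42 in Western diet vehicle and VB mice.

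Reln was lower on the Western diet, both in vehicle mice and in VB mice. The gene lies on chromosome 5 (21884454 to 22344702, minus strand, GRCm38). In control diet vehicle mice it measured 15.2, 22.1, 18.4, 18.9 and 16.3 CPM, and in Western diet vehicle mice 13.6, 11.3, 11.5, 13.5 and 14.2 CPM. The groups did not overlap: the highest Western diet vehicle mouse was below the lowest control diet vehicle mouse. Means were 18.2 ± 2.66 and 12.8 ± 1.32 CPM (SD, n = 5), so that Reln fell by 29.6%, a fitted log2 change of -0.51 (SE 0.17, edgeR quasi-likelihood test, adjusted p = 0.0382). Among VB mice, Reln measured 20.3, 22.6, 18.3, 22.5 and 20.1 CPM on the control diet and 8.01, 16.5, 18.2, 9.67 and 13.7 CPM on the Western diet. Here too the groups did not overlap, although the highest Western diet mouse and the lowest control diet mouse lay close, at 18.24 and 18.35 CPM. The means of 20.8 ± 1.81 and 13.2 ± 4.35 CPM gave a log2 change of -0.65 (SE 0.16, edgeR, adjusted p = 0.0193), so that Reln fell by 36.1%. The diet comparisons in vehicle mice and in VB mice share no animals, but both use a spread estimated over all 20 mice. Library names also differ by diet in both, so the calls on Reln are not independent repeats.

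The call on Reln in vehicle mice was close to its threshold. In 14 of 20 fits that each left out a mouse it was kept, with adjusted p between 0.0141 and 0.111, and it was lost without control diet vehicle mouse 2, 3 or 4 and without Western diet vehicle mouse 1, 2 or 3. In VB mice it was kept in 18 of 20 fits, and lost without control diet VB mouse 2 (adjusted p = 0.051) or Western diet VB mouse 4 (adjusted p = 0.0562). With the clock score as a covariate the log2 change of Reln in vehicle mice was 0.09 (SE 0.56, edgeR adjusted p = 0.996), and in VB mice -0.55 (SE 0.18, adjusted p = 0.086). VB itself left Reln within the spread between mice, with a log2 difference of 0.19 (95% interval -0.14 to 0.53) on the control diet and 0.05 (-0.29 to 0.40) on the Western diet.

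Dcn was lower in Western diet VB mice than in control diet VB mice. The gene lies on chromosome 10 (97479609 to 97518143, plus strand). Control diet VB mice measured 155, 152, 137, 139 and 150 CPM, and Western diet VB mice 49.4, 115, 116, 72.5 and 94.7 CPM. The groups did not overlap, and Western diet VB mice 1 and 4 were the lowest of all 20 mice. Means of 147 ± 8.10 and 89.5 ± 28.6 CPM (SD, n = 5) gave a log2 change of -0.71 (SE 0.16, edgeR, adjusted p = 0.00898), so that Dcn fell by 39.0%. The call was kept in 20 of 20 fits that left out a mouse, with log2 changes between -0.83 and -0.56, and stood at -0.56 (adjusted p = 0.00852) without Western diet VB mouse 1 and at -0.65 (adjusted p = 0.0292) without mouse 4. When the fit held only these 2 groups, neither Dcn (adjusted p = 0.0592) nor Reln (adjusted p = 0.0599) passed, at log2 changes of -0.72 and -0.65.

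In vehicle mice the diets did not separate Dcn beyond the spread between mice. Control diet vehicle mice measured 132, 159, 145, 133 and 115 CPM, and Western diet vehicle mice 111, 123, 116, 130 and 148 CPM, so the groups overlapped. The means were 137 ± 16.4 and 126 ± 14.5 CPM, and the log2 difference was -0.12 (95% interval -0.45 to 0.21). Within the Western diet, VB mice were below vehicle mice by a log2 difference of -0.49 (SE 0.16), with an unadjusted p of 0.00595 that did not pass the threshold in edgeR (adjusted p = 0.0695). The same comparison passed in DESeq2 (adjusted p = 0.0416) and limma-voom (adjusted p = 0.0457). It also passed in edgeR without Western diet VB mouse 2 (adjusted p = 0.041) or mouse 3 (adjusted p = 0.0306). On the control diet, the VB difference of Dcn was 0.10 (-0.23 to 0.43). The difference of the VB effects between diets was -0.59 (SE 0.23) and did not pass (edgeR, unadjusted p = 0.0159, adjusted p = 0.122).

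**Figure D1:**
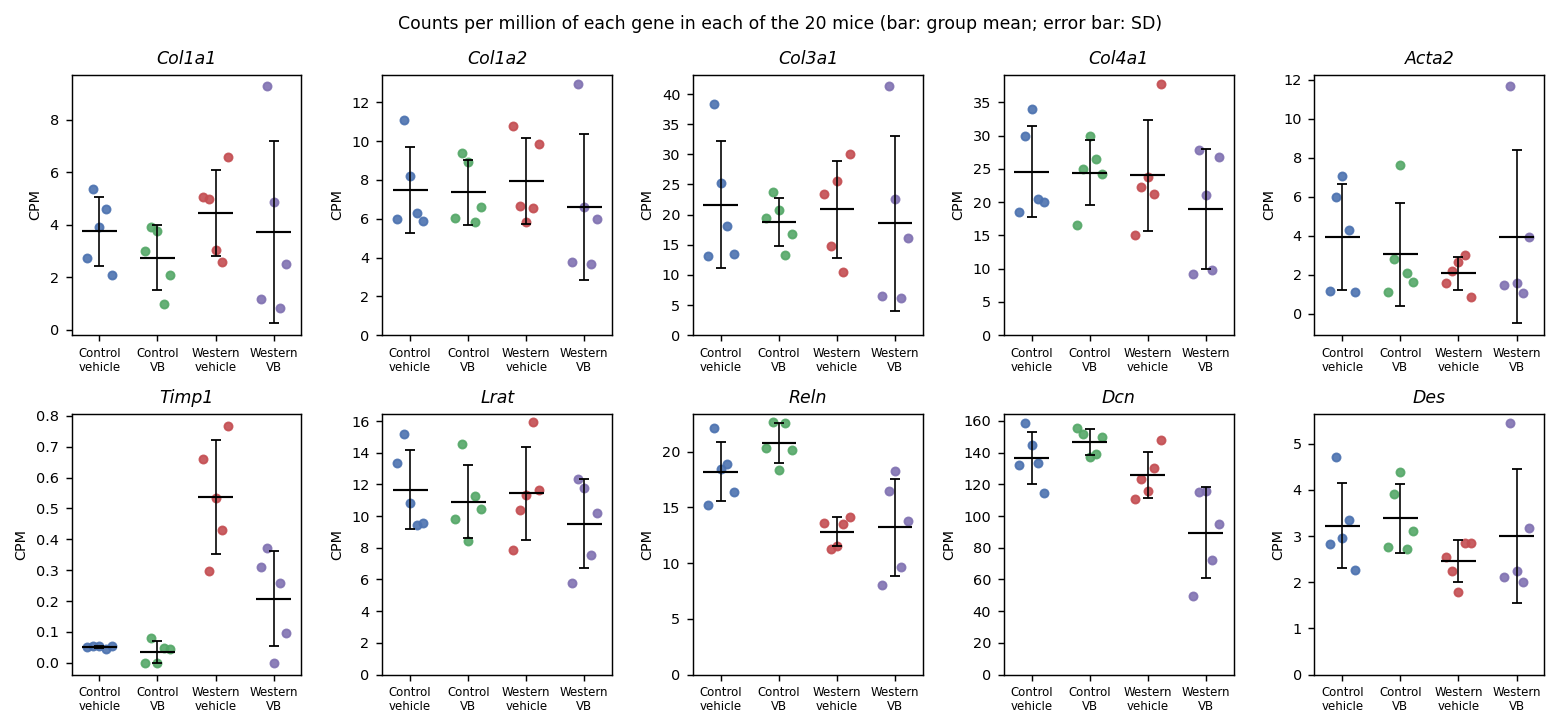
Each panel plots 1 gene in CPM for the 5 mice of each of the 4 groups, with the group mean as a horizontal bar and the SD as an error bar; scales differ between panels. Reln is lower in both Western diet groups, Dcn is lowest in Western diet VB mice 1 and 4, and Timp1 is highest in Western diet vehicle mice, at 0.299 to 0.768 CPM.

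Lrat and Des, also stellate cell markers, did not pass in any of the 5 comparisons. Lrat (chromosome 3, 82892579 to 82903973, minus strand) averaged 11.7 ± 2.51, 10.9 ± 2.29, 11.4 ± 2.92 and 9.53 ± 2.80 CPM in control diet vehicle, control diet VB, Western diet vehicle and Western diet VB mice. Its 4 pairwise log2 differences lay between -0.25 and -0.04, and the interval for VB on the Western diet ran from -0.68 to 0.18. Des (chromosome 1, 75360329 to 75368579, plus strand) averaged 3.23 ± 0.92, 3.38 ± 0.74, 2.46 ± 0.46 and 3.00 ± 1.45 CPM in the same order. Its log2 difference between the diets was -0.39 (95% interval -0.94 to 0.15) in vehicle mice, where the groups overlapped. An antisense gene, Gm15179, shares 5.86% of the exon bases of Des, and without a stated strand setting its reads could not be separated.

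None of the 4 collagen genes among the members was called in any comparison, and their values spread widely within the groups. Col1a1 (chromosome 11, 94936224 to 94953042, plus strand) averaged 3.75 ± 1.33, 2.75 ± 1.22, 4.45 ± 1.64 and 3.73 ± 3.48 CPM, in the group order given for Lrat. The 5 Western diet VB mice measured 1.18, 9.27, 4.87, 0.823 and 2.50 CPM, which includes both the highest and the lowest of the 20 mice. Col1a2 (chromosome 6, 4504814 to 4541544, plus strand) averaged 7.50 ± 2.21, 7.36 ± 1.67, 7.94 ± 2.21 and 6.60 ± 3.77 CPM. For Col3a1 (chromosome 1, 45311538 to 45349706, plus strand) the means were 21.6 ± 10.5, 18.8 ± 3.95, 20.9 ± 8.05 and 18.5 ± 14.5 CPM. Its Western diet VB mice measured 6.45, 41.4, 22.6, 6.12 and 16.2 CPM, again with the extremes of all 20 mice in the same group. Col4a1 (chromosome 8, 11198423 to 11312826, minus strand) averaged 24.6 ± 6.88, 24.5 ± 4.91, 24.0 ± 8.37 and 18.97 ± 8.99 CPM.

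The 95% intervals of the collagen differences were wide. For VB on the Western diet, the log2 difference of Col1a2 was -0.27 (95% interval -0.86 to 0.33), that of Col3a1 -0.17 (-1.10 to 0.76), that of Col1a1 -0.26 (-1.28 to 0.76) and that of Col4a1 -0.34 (-0.96 to 0.29). For the diets in vehicle mice the intervals were -0.50 to 0.68 for Col1a2, -0.98 to 0.88 for Col3a1, -0.77 to 1.28 for Col1a1 and -0.65 to 0.58 for Col4a1. Values within these intervals, 0 included, are compatible with the data at this spread. Without Western diet VB mouse 2, the VB difference on that diet was -0.89 for Col1a1 (edgeR, adjusted p = 0.298), -0.65 for Col1a2 (adjusted p = 0.139) and -0.68 for Col3a1 (adjusted p = 0.424). After adding the clock score to the fit, the same difference was -0.86 for Col1a2 (SE 0.50, adjusted p = 0.738), -0.93 for Col3a1 (SE 0.85, adjusted p = 0.89) and -0.89 for Col4a1 (SE 0.54, adjusted p = 0.763).

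Acta2, the myofibroblast marker, had the widest spread of the tested genes. It lies on chromosome 19 (34241090 to 34255590, minus strand). Control diet vehicle mice measured 1.19, 5.99, 7.04, 4.30 and 1.11 CPM, and control diet VB mice 1.12, 2.80, 7.65, 2.07 and 1.60 CPM. Western diet vehicle mice measured 1.58, 2.19, 2.67, 3.00 and 0.878 CPM, and Western diet VB mice 1.49, 11.7, 1.59, 1.08 and 3.94 CPM. The groups overlapped in each pairwise comparison, and in the Western diet VB group a single mouse, mouse 2, lay far above the rest. The log2 difference for VB on the Western diet was 0.95 (95% interval -0.51 to 2.41, edgeR adjusted p = 0.515), and 0.00070 without that mouse. The summed vascular smooth muscle markers, a list of 7 genes that shares no gene with the 10, were also highest in that mouse, at 27.8 CPM where the group medians were 10.4 to 14.4 CPM. Mean levels of Myh11 were 0.572 to 1.38 CPM, and the part of vessel muscle in the Acta2 values was not tested.

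**Figure D2:**
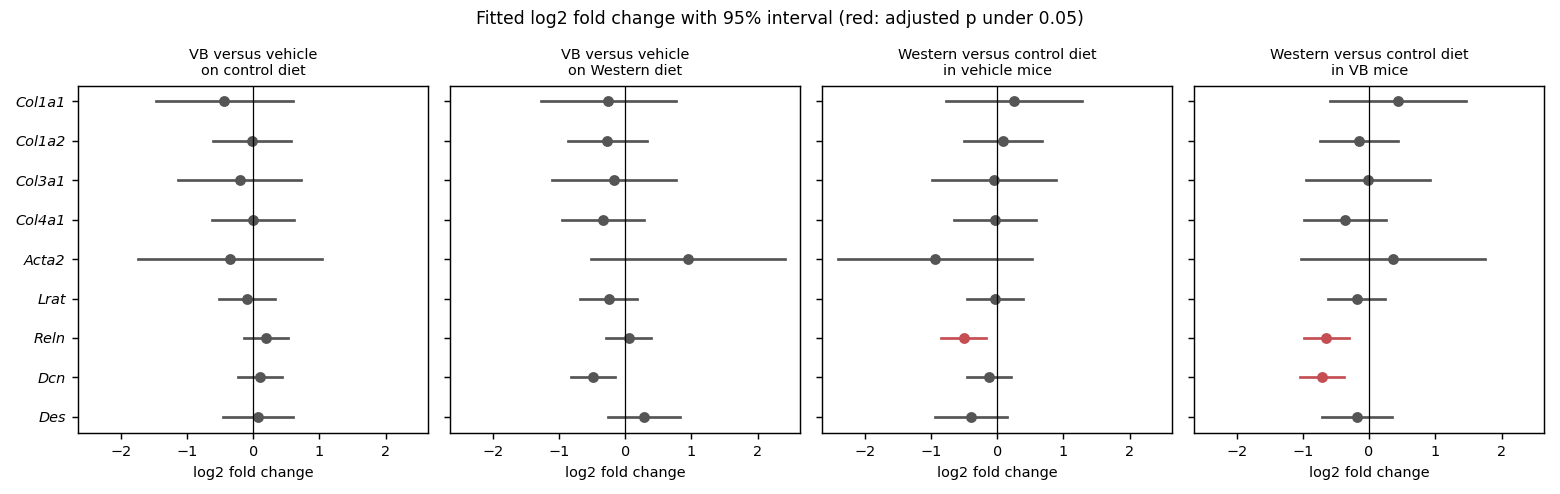
Points are fitted log2 fold changes of the 9 tested genes and lines their 95% intervals, in the 4 pairwise comparisons, with an adjusted p under 0.05 in red. Reln is red in both diet comparisons and Dcn in the diet comparison of VB mice (-0.71); the collagen intervals all span 0, and that of Acta2 is the widest.

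Timp1 had few reads, and most of them in mice on the Western diet. The gene lies on the X chromosome (20870166 to 20874735, plus strand), inside the span of Syn1 on the opposite strand, with no shared exon base. Control diet vehicle mice had 1 read each, and control diet VB mice 0, 2, 0, 1 and 1. Western diet vehicle mice had 15, 6, 9, 6 and 14 reads, and Western diet VB mice 5, 7, 0, 5 and 2. The vehicle groups did not overlap, while those of VB mice did. Pooled over 5 mice, 50 reads against 5 gave a depth-scaled ratio of 10.3 for the Western against the control diet in vehicle mice (95% interval 4.14 to 33.2, which covers counting error only). An exact two-sided permutation test on CPM gave p = 0.00794, the smallest this design allows, and 0.0318 when adjusted over the 4 pairwise comparisons. In an edgeR fit without the filter on low counts, over 20783 genes, the log2 change was 3.24 (SE 0.75, adjusted p = 0.00455).

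The VB mice showed a smaller Timp1 count on the Western diet than the vehicle mice did. The groups overlapped, and 19 reads against 50 gave a ratio of 0.324 (0.18 to 0.559). The exact permutation p was 0.0238, or 0.0476 adjusted over the 4 comparisons, whereas the edgeR fit over 20783 genes did not call it (log2 difference -1.39, SE 0.64, adjusted p = 0.313). Against control diet VB mice, 19 reads against 4 gave a ratio of 4.70 (1.56 to 19). That comparison passed neither in the exact test (p = 0.0635, adjusted 0.0847) nor in edgeR (adjusted p = 0.123). For VB on the control diet, 4 against 5 reads gave an exact p of 0.302. The difference of the VB effects was not called (edgeR, adjusted p = 0.905). At 0 to 15 reads per mouse, the size of these differences is loosely bounded.

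Over the 9 tested genes, none was called for VB on the control diet, where 0.151% of all 12616 tested genes were called. By edgeR 0 of the 9 had an unadjusted p under 0.05, and DESeq2 and limma-voom also called 0. On the Western diet, VB called 0 of 9 in edgeR against 7.19% of all genes, with Dcn the single gene under an unadjusted p of 0.05 and the single one called by DESeq2 and by limma-voom. The Western diet in vehicle mice called 1 of 9, Reln, against 16.5% of all genes, or 7.59% called lower. In VB mice it called 2 of 9, Reln and Dcn, against 6.44% of all genes, or 3.22% called lower. The difference of the VB effects called 0 of 9 against 7.64% of all genes, with 1 gene, Dcn, under an unadjusted p of 0.05, and DESeq2 and limma-voom called 0. These counts of 0 to 2 rest on 9 genes, and no share was tested against that of all genes.

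Groups without overlap gave the same picture. None of the 9 genes separated VB from vehicle on the control diet, where 3.88% of all tested genes did, or on the Western diet, where 5.56% did. In vehicle mice 1 of 9 separated the diets (12.2% of all genes), and in VB mice 2 of 9 (9.43%). The median log2 change of the 9 was -0.02 for VB on the control diet and -0.25 on the Western diet, beside medians of 0.00 and -0.02 over all genes. For the Western diet it was -0.05 in vehicle mice and -0.18 in VB mice, beside 0.02 and 0.00 over all genes. The VB comparison and the diet comparisons share control mice, so their values are not independent of each other.

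Most pairs of the 9 genes varied together from mouse to mouse within the groups. Each mouse's log2 CPM was taken as its deviation from the mean of its own group, so that differences between groups do not enter. All 36 pairs of genes correlated positively over the 20 mice, with Pearson r from 0.295 to 0.889 and a median of 0.660. Pairs of other tested genes were not computed for comparison, so whether this is particular to these genes was not tested. Of the 36, 23 passed by r and 24 by Spearman's rho in a permutation test that shuffled mice within groups (100000 permutations, adjusted over the 36 pairs). Reln and Dcn had the highest Pearson r over the 20 mice (r = 0.889, rho = 0.773, permutation p = 0.00042 and 0.00254, adjusted 0.00302 and 0.0152). Without the 2 mice farthest from the median on the x axis, their r was 0.769. Col1a1 and Col3a1 gave r = 0.876 (rho = 0.811, permutation p = 7e-05 and 0.00034, adjusted 0.00096 and 0.00408), with r = 0.783 without the 2 farthest mice. By rho the highest pair was Col1a1 and Col1a2 (r = 0.866, rho = 0.857, permutation p = 3e-05 and 9e-05, adjusted 0.00096 and 0.00162), with r = 0.765 without the 2 farthest mice. Without the Western diet VB group, r was 0.579 for Reln and Dcn, 0.701 for Col1a1 and Col3a1 and 0.722 for Col1a1 and Col1a2. Col3a1 and Lrat did not pass (r = 0.449, rho = 0.392, permutation p = 0.12 and 0.137, adjusted 0.14 and 0.159). Over all 36 pairs the median r was 0.553 without each pair's 2 farthest mice. It was 0.419 without the Western diet VB group, where 34 of 36 pairs were still positive.

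The Western diet VB group spread most, and whole profiles moved within it. Mouse 1 and mouse 4 were below their group mean in 9 of 9 genes, with median deviations of -0.78 and -0.68 on the log2 scale, and were the lowest of the 20 mice in 4 and 3 genes. Mouse 2 was above the mean in 9 of 9, with a median deviation of 0.95. In the other groups, control diet vehicle mouse 2 and control diet VB mouse 2 were above in 9 of 9, and control diet vehicle mouse 5 was below in 9 of 9. Col1a1 had a coefficient of variation of 93.4% in Western diet VB mice, against 35.5% to 44.4% in the other groups. That of Col3a1 was 78.3%, against 21.0% to 48.5%.

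**Figure D3:**
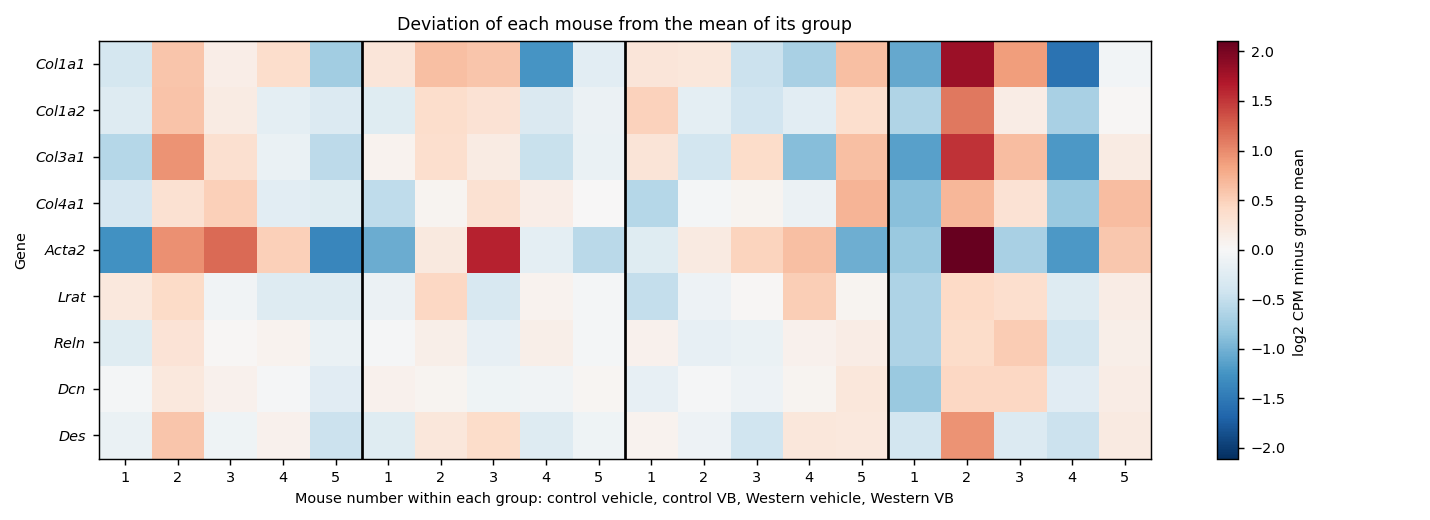
Columns are the 20 mice in their 4 groups, rows the 9 tested genes, and the colour is log2 CPM minus the group mean, red above and blue below. Western diet VB mice 1 and 4 are blue in all 9 rows and mouse 2 is red in all 9, and paler columns of 1 colour appear in the other groups.

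The summed marker lists of cell types did not all follow these profiles. Summed sinusoidal endothelial markers (11 genes) were 108 and 127 CPM in Western diet VB mice 1 and 4, the lowest of the 20 mice, where the group medians ran from 202 to 283 CPM. Summed stellate markers (21 genes, 4 of them among the 10) were 417 and 414 CPM in those mice, against group medians of 652, 742, 613 and 542 CPM in the group order given for Lrat. Dcn is part of this sum, at 49.4 and 72.5 CPM in the same mice, so the sum is not independent of the members. Dcn, Ecm1, Cxcl12 and Steap4 have the highest means on the list and weigh most in it. Kupffer cell markers summed to 244 and 183 CPM in mice 1 and 4, within the range of all mice, from 149.6 to 499.6 CPM. Hepatocyte markers summed to 43740 and 45560 CPM, the highest values of the Western diet VB group. In mouse 2, which was above the mean in all 9 genes, the stellate sum was 542 CPM, the median of its group. Its endothelial sum was 279 CPM, below the 288 CPM of mouse 3, and its Kupffer sum of 365 CPM was the highest of the group. In mouse 2 and mouse 5 of that group, adipocyte markers summed to 51.4 and 34.1 CPM, against 4.66 to 21.8 CPM in the other 18 mice. The part of the tissue makeup of each piece in these deviations was not tested. Portal fibroblast markers (12 genes) summed to 21.9 to 43.0 CPM and mesothelial markers (6 genes) to 0.644 to 16.96 CPM over all mice. Lymphocyte markers summed to 3.50 to 15.1 CPM, cholangiocyte markers to 11.8 to 22.5 CPM, and those of red cells to 776 to 4946 CPM. Pancreatic acinar markers were at or near 0, at 1.00 CPM or less in sum.

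**Figure D4:**
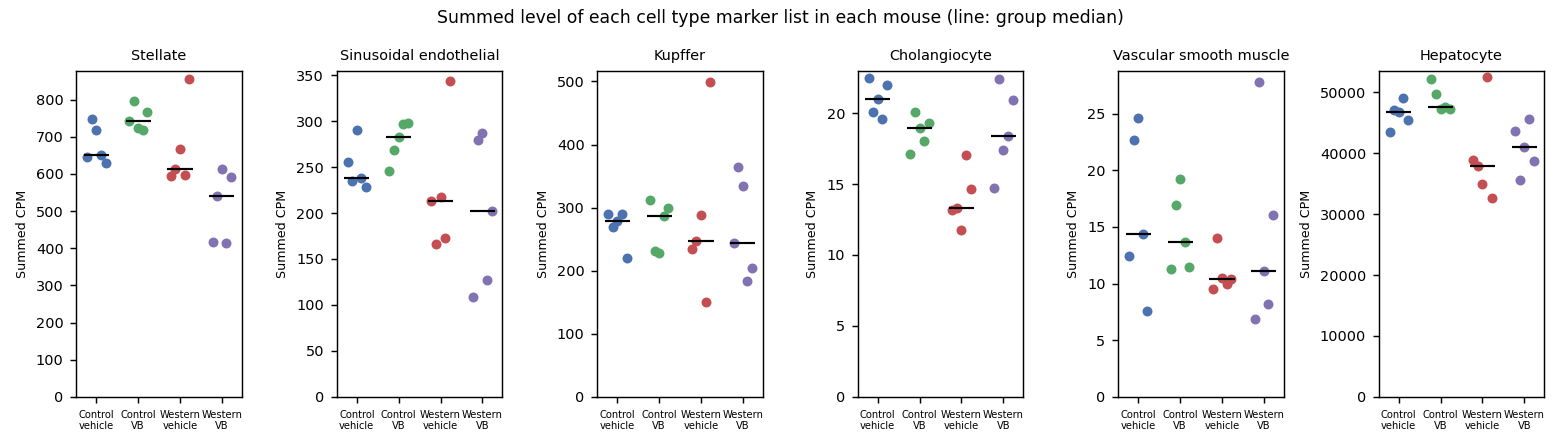
Each panel shows the summed CPM of a marker list in the 20 mice, by group, with the group median as a line, on an axis from 0. Stellate and sinusoidal endothelial sums are low in the same 2 Western diet VB mice (414 and 417 CPM, and 127 and 108 CPM), while their hepatocyte sums are not.

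Of 20 tested genes on the stellate marker list, which includes Lrat, Reln, Dcn and Des, 8 were lower and 0 higher on the Western diet in VB mice. Over all genes 3.22% were called lower in that comparison. The median log2 change of the 20 was -0.56, beside 0.00 over all genes. Sinusoidal endothelial markers were also mostly negative there, 9 of 11, with 1 called lower and a median of -0.38, and their part in the stellate values was not tested. The 8 were Reln, Dcn, the growth factor Hgf (-0.85, SE 0.21), Ecm1 (-0.82, SE 0.21), the receptors Pth1r (-0.79, SE 0.23) and Vipr1 (-0.74, SE 0.20), Angptl6 (-0.52, SE 0.13) and the chemokine Cxcl12 (-0.29, SE 0.09), with edgeR adjusted p from 0.00898 to 0.0488. Ecm1, which encodes a secreted matrix protein, averaged 157 ± 17.6 CPM in control diet VB mice and 88.5 ± 34.6 CPM in Western diet VB mice. Hgf, which encodes a growth factor for hepatocytes, averaged 4.32 ± 0.79 and 2.39 ± 0.46 CPM. Western diet VB mice 1 and 4 had the lowest stellate sums of the 20 mice. Apart from Reln and Dcn, the 8 calls were not examined in fits that left out a mouse or held only the 2 groups.

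In vehicle mice 3 of the 20 markers were lower and 1 higher on the Western diet, near the 16.5% of all genes called there, with a median of -0.19. Among them Reln and Cxcl12 (-0.31, SE 0.09) fell, and the metalloreductase gene Steap4 rose (0.75, SE 0.23). VB on the Western diet called 0 of the 20 in edgeR, with 6 under an unadjusted p of 0.05, and DESeq2 and limma-voom called 1 each. The median was -0.28 and 17 of 20 estimates were negative. On the control diet VB called 0 of 20 in edgeR, DESeq2 and limma-voom, with 1 under an unadjusted p of 0.05, and the median was 0.09. These marker genes were listed with earlier results known, and are named here after their values were seen.

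**Figure D5:**
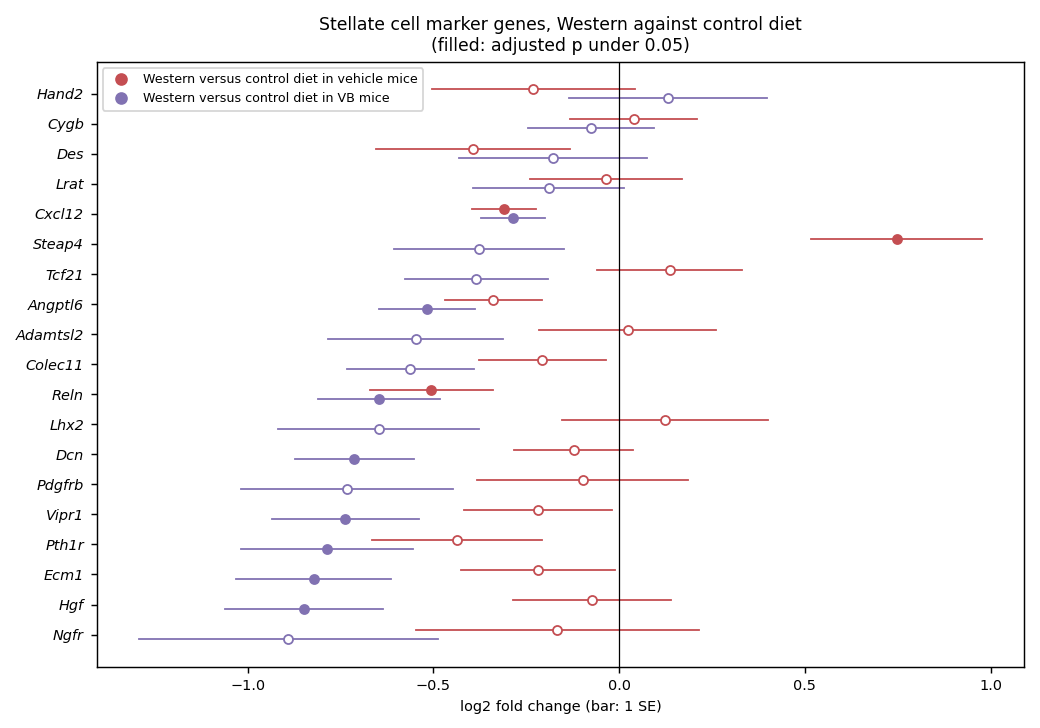
For 19 of the 20 tested stellate marker genes, points give the log2 fold change of the Western against the control diet in vehicle and in VB mice, with 1 SE, filled where the adjusted p was under 0.05. In VB mice 18 of 19 points lie left of 0 and 8 are filled; in vehicle mice 14 lie left and 3 are filled, of which Steap4 lies to the right at 0.75.

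Across 8 pathway lists around these genes (123 tested genes), 18 were called for the Western diet in vehicle mice, or 14.6% against 16.5% of all genes. In VB mice 12 were called (9.76% against 6.44%), for VB on the Western diet 8 (6.5% against 7.19%), and for the difference of the VB effects 9 (7.32% against 7.64%). The shares in vehicle mice, for VB on the Western diet and for the difference were thus close to or below the background, and the genes named from these lists are single calls. VB on the control diet called 0 in edgeR, with 9 under an unadjusted p of 0.05, 1 in DESeq2 and 0 in limma-voom. Few were structural collagens. Of 14 fibrillar and fibril-associated collagens, 1 fell on the Western diet in vehicle mice, Col5a3 (-0.50, SE 0.16), a minor fibrillar chain, and 1 in VB mice, Col14a1 (-0.61, SE 0.18), a fibril-associated collagen. Those calls were lost in 7 and 12 of 20 fits that left out a mouse. Of 14 basement membrane genes, Nid2, which encodes the linker protein nidogen-2, was lower on the Western diet, with log2 changes of -1.86 (SE 0.24) in vehicle mice and -0.81 (SE 0.23) in VB mice. The call in VB mice was lost in 7 of 20 fits. Nid2 averaged 7.62 ± 1.40, 5.31 ± 1.71, 2.08 ± 0.79 and 3.03 ± 0.25 CPM in the 4 groups. Hspg2, which encodes perlecan, also fell in vehicle mice (-0.75, SE 0.23, lost in 4 of 20 fits).

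Genes of collagen processing moved in both directions. P4ha1, which encodes the catalytic subunit of prolyl 4-hydroxylase, averaged 18.7 ± 3.77, 13.1 ± 4.36, 7.93 ± 1.08 and 15.8 ± 3.58 CPM. In vehicle mice it fell by 1.23 on the log2 scale on the Western diet (SE 0.20, edgeR adjusted p = 0.000125), and rose with VB on that diet by 1.00 (SE 0.20, adjusted p = 0.00316). The difference of its VB effects was 1.51 (SE 0.27, adjusted p = 0.0019). The lysyl hydroxylase gene Plod1 rose in vehicle mice on the Western diet (0.43, SE 0.09), and the procollagen C-proteinase gene Bmp1 fell (-0.42, SE 0.11). P3h1, which encodes prolyl 3-hydroxylase, rose in VB mice on the Western diet (0.42, SE 0.11, lost in 4 of 20 fits). Of 18 tested genes on that list, 3 were called in vehicle mice and 1 in VB mice for the diet, 1 for VB on the Western diet and 2 for the difference. The list's medians lay between -0.20 and 0.01.

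Among 9 tested matrix proteases and inhibitors, Mmp14, which encodes a membrane-bound collagenase, was lower on the Western diet in vehicle mice (-0.74, SE 0.18) and in VB mice (-0.71, SE 0.18, lost in 4 of 20 fits). It averaged 21.5 ± 1.54 and 21.2 ± 3.52 CPM on the control diet and 12.8 ± 4.36 and 12.98 ± 1.85 CPM on the Western diet. Mmp19 rose in vehicle mice (0.36, SE 0.10, lost in 3 of 20 fits). Of 12 proteoglycans and elastic matrix genes, 2 fell on the Western diet in VB mice: Dcn and Efemp1, which encodes a fibulin (-0.92, SE 0.26, lost in 8 of 20 fits).

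In the myofibroblast and contractile list of 16 tested genes, Acta2 was not among the genes called. Lgals1, which encodes galectin-1, averaged 17.6 ± 4.87, 18.9 ± 5.67, 64.9 ± 41.1 and 19.7 ± 6.46 CPM in the 4 groups. It rose on the Western diet in vehicle mice by 1.88 (SE 0.34, edgeR adjusted p = 0.000859) and fell by 1.72 on the log2 scale with VB on that diet (SE 0.34, adjusted p = 0.00457). Tpm2, which encodes a tropomyosin, was called in the same comparisons, with means of 5.51 ± 1.70, 6.47 ± 1.45, 22.6 ± 13.5 and 7.58 ± 2.80 CPM. Its changes were 2.03 (SE 0.36) and -1.56 (SE 0.35). The differences of the VB effects were -1.82 for Lgals1 and -1.79 for Tpm2, lost in 1 and 3 of 20 fits. Without Western diet vehicle mouse 4, which had the highest Lgals1 level, the diet change was 1.40 for Lgals1 and 1.62 for Tpm2, both still called. Ctgf, a matricellular target of TGF-beta, was lower on the Western diet in VB mice (-1.24, SE 0.35, lost in 9 of 20 fits). The list's medians were -0.25 for the diet in vehicle mice and -0.03 for VB on the Western diet.

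TGF-beta and PDGF signalling genes (25 tested) were called in few cases. Pdgfra, which encodes a PDGF receptor, averaged 1.82 ± 0.39, 2.91 ± 0.23, 2.35 ± 0.80 and 1.13 ± 0.38 CPM. It fell by 1.03 on the log2 scale with VB on the Western diet (SE 0.26, edgeR adjusted p = 0.015, lost in 1 of 20 fits), and in VB mice was lower on the Western diet (-1.35, SE 0.25). Tgfbr2, which encodes a TGF-beta receptor, rose on the Western diet in vehicle mice (1.08, SE 0.19) and fell with VB on that diet (-0.72, SE 0.19, lost in 3 of 20 fits). Tgfbi, a secreted protein induced by TGF-beta, also fell with VB there (-0.48, SE 0.14, lost in 5 of 20 fits). In vehicle mice Skil (-0.77, SE 0.23) and the ligand gene Pdgfc (-0.68, SE 0.22) fell on the Western diet, lost in 3 and 5 of 20 fits. In VB mice the decoy receptor gene Bambi fell (-0.83, SE 0.22, lost in 4 of 20 fits) and the ligand gene Pdgfa rose (0.73, SE 0.22, lost in 12 of 20 fits). The list's median was -0.09 for the diet in vehicle mice, -0.28 in VB mice and 0.02 for VB on the Western diet.

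Lrat was not called, but other genes of retinoid storage and action were, and several of these are also expressed by hepatocytes. Of 15 tested, 4 fell and 1 rose on the Western diet in vehicle mice. Dhrs3, which reduces retinal to retinol, averaged 136 ± 1.87 and 82.4 ± 6.74 CPM in control and Western diet vehicle mice (-0.73, SE 0.07, edgeR adjusted p = 1.3e-07). Cyp26a1, which degrades retinoic acid, averaged 24.5 ± 11.4 and 3.78 ± 1.18 CPM (-2.70, SE 0.38, adjusted p = 6.44e-05). The retinol transporter gene Stra6l fell as well (-0.52, SE 0.13), and the receptor gene Rxra rose (0.36, SE 0.12, lost in 17 of 20 fits). With VB on the Western diet, Aldh1a1, which makes retinoic acid, fell (-0.64, SE 0.14), and so did Retsat, the retinol saturase gene (-0.59, SE 0.13). In VB mice 2 genes were lower on the Western diet, Retsat (-0.55, SE 0.13) and Cyp26b1 (-1.36, SE 0.37, lost in 4 of 20 fits), another enzyme that degrades retinoic acid. The list's median was 0.02 for the diet in vehicle mice and -0.17 in VB mice.

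The genes whose deviations from group means were most like those of the collagens and of the stellate markers were listed over all tested genes and the 20 mice, as a description. For the mean standardised profile of Col1a1, Col1a2 and Col3a1, these were the protease gene Prss23 (r = 0.922), the collagen-binding proteoglycan lumican (Lum, 0.897), the metalloproteinase inhibitor gene Timp2 (0.891), gelsolin (Gsn, 0.888) and the endothelin receptor gene Ednrb (0.880). For Lrat, Reln, Dcn and Des they were Sdpr (0.938), Col14a1 (0.927), Igfbp3 (0.908), Igfbp7 (0.896) and Scd2 (0.893). Without the Western diet VB group these r ranged from 0.643 for Igfbp7 to 0.876 for Prss23. All points share libraries and depth with the genes they are compared with.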

How the data were processed

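The authors deposited whole read counts per gene for 40 lane files of liver RNA; per the labels, RNA was extracted with Trizol and made into TruSeq libraries. The submitters' processing notes name GRCm38 as the build. For the aligner, counter, annotation and strand, the entry is: not given in the sources used here. The 2 lanes of each mouse were summed: chi-square per degree of freedom over genes with at least 20 reads was 1.33 to 1.49 between lanes and 17.7 to 146 between mice of a group. A single lane file is labelled vehicle but titled VB, as is its other lane, and was kept as VB. The labels do not say whether mice shared cages or litters. The tests set group differences against the spread between mice and treated the mice as independent. If mice of a group shared a cage or litter, the p-values could be too small.

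Counts were fitted with edgeR 4.0.16 (R 4.3.3; limma 3.58.1; DESeq2 1.42.0): filterByExpr (minimum count 10, minimum total 15), 12616 genes holding 99.95% of counts, TMM scaling, and robust quasi-likelihood over all 4 groups. The threshold was 0.05 after Benjamini-Hochberg adjustment over all tested genes. CPM use TMM-scaled library sizes, and log2 CPM a prior count of 2. The steps were tested on simulated counts. Positions and exon lengths come from GENCODE M21, and promoters from RefSeq.

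The members and lists were chosen with earlier results of these data known. Named genes are the 10 members, up to 3 called genes with the smallest p per direction, pathway list and comparison, and 5 pattern partners for each of 2 sets. A gene of the lists is not reported here by name; it stayed in all fits and counts. Alternatives covered scaling, filters, tools, groups fitted, replicate block, lanes, a clock covariate and leaving out each mouse.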

Additional observations from a re-analysis of the deposited data

Results flagged for a closer look

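Within groups of 5 mice, a mouse was singled out where its gap to the nearest other mouse was over 0.71 of the group's range. Of 180 groups of values checked, 13 held such a mouse, and chance alone gives about 1 in 20. Acta2 stood at 7.65 CPM in control diet VB mouse 3, where the others measured 1.12 to 2.80, and at 11.7 CPM in Western diet VB mouse 2, where the others measured 1.08 to 3.94. Timp1 in control diet vehicle mouse 4 was 0.0452 CPM, but it held 1 read like every mouse of its group, so the gap reflects library size. In Western diet vehicle mouse 4, Bmp1 was low at 43.7 CPM (others 69.0 to 74.1), while Lgals1 was high at 137 CPM (others 40.5 to 61.1). Cxcl12 was high at 172 CPM in control diet VB mouse 1, and Hspg2 at 6.84 CPM in control diet VB mouse 2. In control diet VB mouse 5, Skil was high at 7.13 CPM and Tgfbi at 27.3 CPM. Cyp26a1 was high at 5.83 CPM in Western diet vehicle mouse 3. Rxra was high at 211 CPM in control diet vehicle mouse 5 and at 268 CPM in control diet VB mouse 3, and low at 193 CPM in Western diet VB mouse 4.

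For 10 genes around the members, the effect of VB differed between the diets by a test of the difference itself in edgeR. The differences on the log2 scale, Western minus control diet, were 1.51 for P4ha1, 0.55 for P3h1, 0.51 for Dhrs3 and 1.73 for Cyp26a1. They were -1.82 for Lgals1, -1.79 for Tpm2, -1.71 for Pdgfra, -0.91 for Tgfbr2, -0.90 for Retsat and -1.12 for the stellate marker Steap4. Steap4 averaged 104 and 148 CPM in control diet vehicle and VB mice, and 175 and 114 CPM in Western diet vehicle and VB mice. Calls on the difference were lost in 15 of 20 fits that left out a mouse for Cyp26a1 and for Tgfbr2, and in 10 of 20 for P3h1. No member was among these genes.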

How the results depend on the processing

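Of 1386 recomputed log2 values of the 9 tested members over 31 alternatives, 1324 kept their side of the threshold and stayed within 1 SE if not called, 12 lost a call, 5 gained 1 and 44 moved by more than 1 SE without a call. The sign changed in 77 of the 1386 values. A called value changed sign once: Reln for the diet in vehicle mice came to 0.0916 once the clock score entered the model. That covariate turned Mmp19 to -0.54, Skil to 0.29 and Pdgfc to 0.46 in that comparison; the score differed between groups, and the SE of Reln rose from 0.17 to 0.56. Members called for VB on the Western diet went from 0 to 1 (Dcn) with DESeq2, with limma-voom and with the mouse number as a replicate block, and ran from 0 to 1 leaving out single mice. For the diet in vehicle mice, 1 became 2 without the filter on low counts (Reln and Timp1) and 0 with the clock covariate, and ran from 0 to 1 leaving out mice. For the diet in VB mice, 2 became 0 with only the groups compared, 1 with lane 1 alone and 1 with the clock covariate, and ran from 1 to 2 leaving out mice. The cause was not tested.

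Over all genes, VB on the control diet called 19, against 29 with upper-quartile scaling, 164 with DESeq2, 40 with limma-voom, 66 with only the groups compared, 65 with the replicate block, 36 with lane 2 alone, 0 with the clock covariate and 6 to 66 leaving out mice. VB on the Western diet called 907, against 464 with only the groups compared and 2 with the clock covariate. The diet in vehicle mice called 2083, against 28 with the clock covariate. The diet in VB mice called 813, against 541 without control diet VB mouse 4 and 1395 without Western diet vehicle mouse 4. The difference of effects called 964, against 1 with the clock covariate and 1702 without Western diet vehicle mouse 4. Whether mouse numbers pair the mice was not settled. In the check of same-numbered pairs, 7 of 30 correlated above 0.1, with a median r of 0.0445. In 13 of the 30 the same-numbered mouse correlated best among the 5 mice of the other group, where by chance each of the 5 is equally likely to be best. Each mouse above its group mean in all 9 tested members carried the number 2. The Western diet vehicle mouse of that number was below in 7 of 9. The replicate block changed no member's call apart from Dcn for VB on the Western diet. Of 46 calls on named list genes, 23 were kept in every fit that left out a mouse.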
